A study of Mus musculus with 3 samples.

Results

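Desmosomes are the junctions that tie the keratin networks of neighbouring keratinocytes together, and 10 genes that encode their parts were followed here, out of 19927 gene symbols in the deposited matrices. They were chosen by name: the desmogleins *Dsg1a*, *Dsg1b*, *Dsg1c* and *Dsg3*, the desmocollins *Dsc1*, *Dsc2* and *Dsc3*, the armadillo proteins *Jup* and *Pkp1*, and the plakin *Dsp*. All 10 were listed in each of the 3 libraries. The libraries hold single-cell RNA counts of epidermal and hair follicle cells of P18 mouse dorsal skin, freed with trypsin and scraping. Of them, 2 are controls, with the floxed *Vdr* alleles and no Cre (*Vdr* flox/flox), and 1 carries the *Vdr* cKO label (*Vdr* flox/flox; Krt14cre), in which Cre under the *Krt14* promoter acts in keratinocytes of the basal layer and the follicle and in their progeny. The methods of the study name pooled skin of 3 male mice for each library, and the sex-linked genes of 1 library go against this. A library is the replicate, and the spread between mice was not measured. There is no replicate of the *Vdr* cKO genotype.

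Desmogleins and desmocollins are cadherins that cross the cell membrane and bind those of the next cell. Inside the cell, plakoglobin (*Jup*) and plakophilin 1 (*Pkp1*) bind the cadherin tails, and desmoplakin (*Dsp*) joins this plaque to keratin filaments. In stratified epidermis the paralogues are known to be used at different heights, with desmoglein 3 and desmocollin 3 strongest in the lower layers and desmoglein 1 and desmocollin 1 in the upper ones. Autoantibodies to desmoglein 1 or 3 cause pemphigus, a blistering disease, and mice have a cluster of closely related desmoglein 1 genes where humans have a single gene.

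Cells were taken as barcodes that had 200 or more detected genes and no more than 20% of counts from mitochondrial genes. They numbered 1480 and 1658 in controls 1 and 2 and 2622 in the library labelled *Vdr* cKO, with 18802408, 28690129 and 30954897 counts. Levels are given in CPM, the counts of a gene divided by all counts of the same cells and scaled up to a common total. *Vdr*, the deleted gene, stood at 40.7 and 35.9 CPM in the controls. The library labelled *Vdr* cKO held 80.8 CPM of it, so *Vdr* was not lower where the label says it was deleted. Counts per gene do not separate transcripts with the floxed exon from those without it. *Xist*, which is made in female cells, had 0 counts in both controls. The library labelled *Vdr* cKO had 142 CPM of it, and also held less of the Y-linked *Ddx3y* (100.1, 99.0 and 40.2 CPM) and *Eif2s3y* (107, 83.5 and 21.0 CPM). The sex-linked genes of that library thus go against a pool of males alone, and sex and label cannot be told apart in what follows. Barcodes found in another library as well made up 0.763% to 1.82% of the kept cells, and the calls of desmosome genes between libraries were the same without them. Intervals in brackets are 95% intervals, exact Poisson for levels and Clopper-Pearson for shares. They cover counting error only, and a transcript copied and counted repeatedly makes them too narrow. A cell with any *Dsp* count held a mean of 72.2, 96.4 and 42.4 of them.

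The cadherin genes lie side by side and the plaque genes are scattered. In GRCm38 (mm10) the 7 cadherin genes fill 587 kb of chromosome 18, from 19960930 to 20547459. In order these are *Dsc3*, *Dsc2* and *Dsc1* on the minus strand, and *Dsg1c*, *Dsg1a*, *Dsg1b* and *Dsg3* on the plus strand. *Dsp* is at chr13:38151294-38198577 (plus strand), *Pkp1* at chr1:135871395-135919207 (minus strand) and *Jup* at chr11:100368958-100397763 (minus strand). The desmoglein 1 genes share sequence, which can move reads between them. Of the 50-base windows of transcript Dsg1b-201, 45.5% also occur in *Dsg1a* and 25.0% in *Dsg1c*, while none occurs in *Dsg3*. Reads of droplet libraries come mostly from the 3′ end, and in the last 1000 bases of that transcript the shared windows fall to 6.62% for *Dsg1a* and 4.31% for *Dsg1c*. For 100-base windows they are 31.6% of the whole transcript and 0% of its last 1000 bases against *Dsg1a*. How reads that match several genes were counted is not given in the sources used here, so values that separate *Dsg1a* from *Dsg1b* or *Dsg1c* are uncertain to that extent.

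To follow the genes along differentiation, cells were placed on an axis of 3 keratinocyte genes that are not desmosome genes: *Krt14*, the keratin of basal cells, *Krt10*, a keratin of the suprabasal layers, and *Lor*, which encodes loricrin of the cornified envelope. After 3 small classes were set aside (cells high in MHC class II genes, in inner root sheath genes or in *Cers4* and *Fa2h*), the 5545 remaining cells were ranked on *Lor* over all libraries into 3 groups of equal size, with limits at 3385 and 11962 CPM. The lowest group was split evenly by the balance of *Krt14* to *Krt10*. With 100 CPM added to each, the split fell where *Krt10* was 46.9 times *Krt14*. The resulting stages are ranges of a score and not cell types, and 199, 374 and 34 cells lay within 10% of the lower *Lor* limit, the upper *Lor* limit and the *Krt14* to *Krt10* limit. Krt14-leaning cells numbered 80, 127 and 717 in controls 1 and 2 and the library labelled *Vdr* cKO, Krt10-leaning cells 269, 399 and 256, Lor-intermediate cells 557, 463 and 828, and Lor-high cells 519, 618 and 712. Markers that played no part in the ranking followed the names in part. The 6 basal markers summed to 10107 to 19269 CPM in Krt14-leaning cells and to 2133 to 6298 CPM in Krt10-leaning cells, and the 6 granular markers to 5554 to 12165 CPM in Lor-high cells and 502 to 1944 CPM in Krt14-leaning cells. The 4 spinous markers were not highest in Krt10-leaning cells, at 31504, 40197 and 29655 CPM there and 39951, 57769 and 38361 CPM in Lor-high cells of controls 1 and 2 and the library labelled *Vdr* cKO. The basal markers were not lower in Lor-high (3032, 2266 and 6998 CPM) than in Krt10-leaning cells, and *Krt5*, a basal keratin, rose between these stages by 1.32 ± 0.29 on the log2 scale (adjusted p 0.024 in edgeR). Krt14-leaning cells still held *Krt10* at 16598 to 22552 CPM, above their *Krt14* at 2736 to 6530 CPM. The name is thus relative to Krt10-leaning cells, which held *Krt14* at 46.3 to 164 CPM.

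Between Krt14-leaning and Krt10-leaning cells, *Dsc1*, *Dsg1a* and *Dsp* rose, by 1.45 ± 0.28, 1.19 ± 0.18 and 0.62 ± 0.12 on the log2 scale (± SE, 3 libraries). *Dsc1* kept its higher level in Lor-high cells, whereas *Dsg1a* fell again by 0.77 ± 0.18. *Dsg3* was lower in Krt10-leaning than in Krt14-leaning cells of each library, and *Dsc3* was higher in Krt10-leaning cells than in either end of the axis, but neither passed the test. These values come from edgeR's quasi-likelihood test on counts summed for each library and stage, 12 sums in all, with library as a block and Benjamini-Hochberg adjustment over the 11737 genes tested. The fit also scales the sums by TMM factors and the CPM do not, so fitted differences need not match ratios of CPM. From Krt14-leaning to Lor-high cells, *Dsp* and *Pkp1* had fitted differences of 0.27 and 0.16. Their CPM went in that direction in 1 of 3 libraries. *Dsg1c*, with 5, 7 and 2 counts in the libraries, was the only desmosome gene left out by the filter on low counts. Of the 9 tested, 3 rose and 0 fell from Krt14-leaning to Krt10-leaning cells, where 1.23% of all genes rose and 0.716% fell. From Krt10-leaning to Lor-high cells 0 rose and 1 fell, beside 1.37% and 0.0682% of all genes, and from Krt14-leaning to Lor-high cells 1 rose and 0 fell, beside 3.43% and 0.741%.

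**Figure D1:**
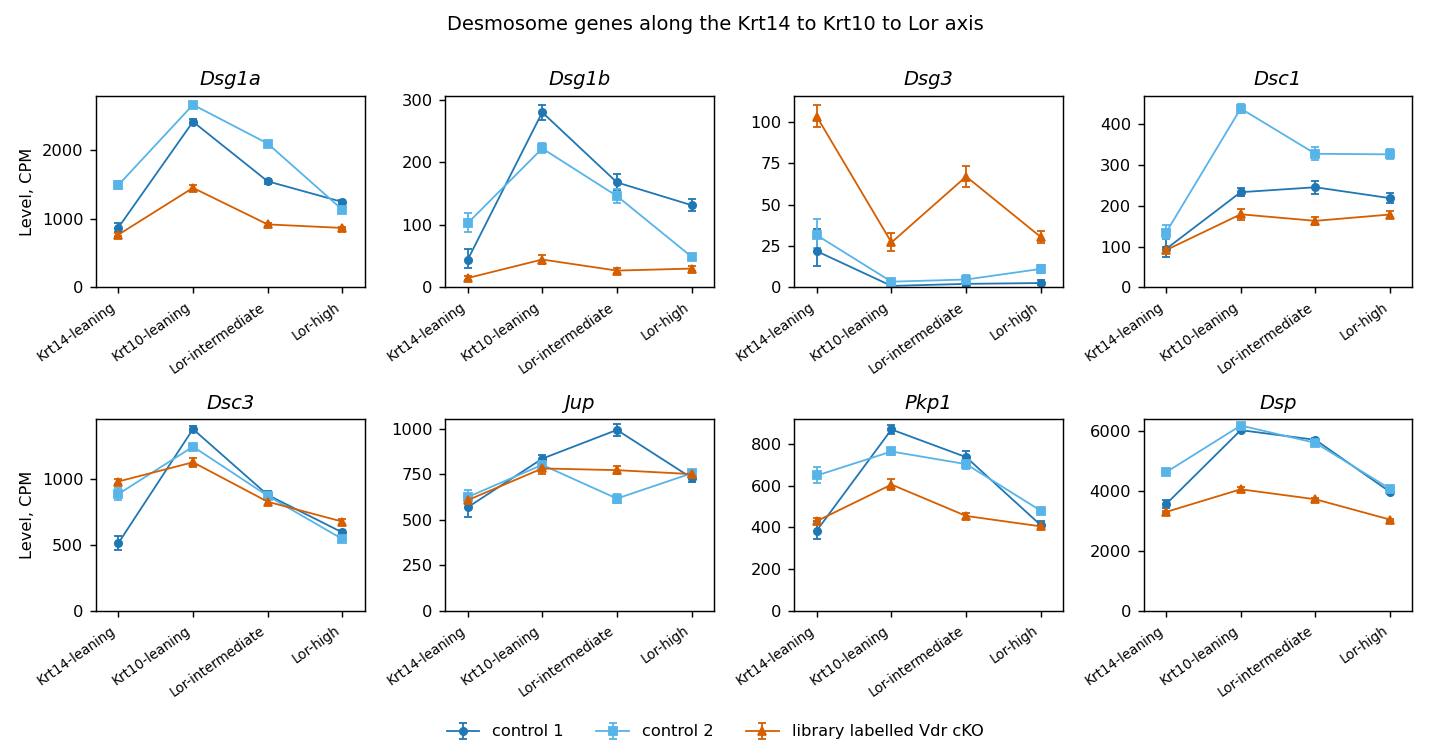
Level of 8 desmosome genes (CPM, y axis from 0) in the 4 stages of each library (x axis), with 95% Poisson intervals as bars. *Dsg1a*, *Dsc3* and *Dsp* peak in Krt10-leaning cells of every library, *Dsc1* is lowest in Krt14-leaning cells, and *Dsg3* of the library labelled *Vdr* cKO lies above both controls in every stage.

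The desmogleins did not share a course. *Dsg1a*, whose product is a main desmoglein of upper epidermis, stood in Krt14-leaning cells at 870, 1488 and 766 CPM in controls 1 and 2 and the library labelled *Vdr* cKO. In Krt10-leaning cells it stood at 2411, 2658 and 1448 CPM, in Lor-intermediate cells at 1544, 2093 and 916 CPM, and in Lor-high cells at 1243, 1131 and 865 CPM. Within each library the Krt10-leaning value was the highest of the 4, although the ranges of the libraries overlap between stages. The rise to Krt10-leaning cells had an adjusted p of 0.0013 (edgeR). The later fall had an adjusted p of 0.034 and is less secure, since it lost its call without any 1 of the 3 libraries, with adjusted p of 0.107 to 0.429. *Dsg1b*, its neighbour and near copy, went from 43.7, 103 and 14.9 CPM in Krt14-leaning cells to 280, 222 and 44.6 CPM in Krt10-leaning cells. That is a log2 difference of 1.81 ± 0.47 with an adjusted p of 0.053, so it just missed the threshold, with the same direction in 3 of 3 libraries. In Lor-high cells *Dsg1b* stood at 132, 49.1 and 30.1 CPM. *Dsg1c* had 5, 7 and 2 counts in the libraries as a whole and no stage can be compared.

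*Dsg3*, the desmoglein of the lower layers, had its highest level in Krt14-leaning cells of every library, at 21.9, 31.5 and 103 CPM. In Krt10-leaning cells the levels were 0.89, 3.44 and 27.1 CPM, and their Poisson intervals did not overlap those of Krt14-leaning cells within any library. Those intervals take repeated counts within a cell as independent. With cells thinned to 1000 counts, *Dsg3* was found in 1.27%, 3.20% and 6.20% of Krt14-leaning and 0.372%, 1.26% and 3.56% of Krt10-leaning cells. The intervals of these shares overlapped within each library. Lor-intermediate cells held 2.11, 4.75 and 67.0 CPM, and Lor-high cells 2.62, 11.2 and 30.4 CPM. The log2 difference from Krt14-leaning to Krt10-leaning cells was -3.14 ± 0.93 with an adjusted p of 0.107 in edgeR. DESeq2 on the same sums gave -3.30 with an adjusted p of 0.00090, and counting a gene once for each cell gave -1.68 with an adjusted p of 0.00016. The controls contribute few cells to this comparison: their 17 and 55 *Dsg3* counts in Krt14-leaning cells came from 3 and 9 cells, beside 916 counts from 131 cells in the library labelled *Vdr* cKO.

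Among the desmocollins, the CPM of *Dsc1* and *Dsc3* parted at the late end of the axis. *Dsc1*, known for the upper layers, stood at 93.9, 134 and 91.2 CPM in Krt14-leaning cells. In Krt10-leaning cells it reached 233, 438 and 179 CPM, and it remained at 218, 326 and 178 CPM in Lor-high cells. Every Krt10-leaning and Lor-high value was above every Krt14-leaning value, across libraries. *Dsc1* was the only desmosome gene past the threshold from Krt14-leaning to Lor-high cells, with a log2 difference of 1.47 ± 0.28 and an adjusted p of 0.0032 in edgeR, and the adjusted p of its rise to Krt10-leaning cells was 0.0095. Without control 2 these adjusted p were 0.135 and 0.231, and the differences 1.38 and 1.28, and without the library labelled *Vdr* cKO the adjusted p of the early rise was 0.064.

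*Dsc3*, the desmocollin of lower layers, went from 511, 882 and 977 CPM in Krt14-leaning to 1374, 1241 and 1123 CPM in Krt10-leaning cells. It then stood at 876, 869 and 825 CPM in Lor-intermediate and 592, 542 and 674 CPM in Lor-high cells. Lor-high values were the lowest of the last 3 stages in each library, and they overlapped the Krt14-leaning values across libraries. The differences of 0.81 ± 0.22 to Krt10-leaning cells and -0.86 ± 0.21 from there to Lor-high cells had adjusted p of 0.067 and 0.054 in edgeR. *Dsc2*, a desmocollin better known from simple epithelia and heart, had 12.3, 5.47 and 5.20 CPM in the libraries and no stage difference past the threshold, with an SE of 1.59 to 1.65 on the log2 scale.

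Of the plaque genes, *Dsp* passed the threshold between stages, and *Pkp1* and *Jup* did not. *Dsp*, the link to keratin, stood at 3563, 4632 and 3303 CPM in Krt14-leaning cells, at 6042, 6196 and 4062 CPM in Krt10-leaning cells and at 3975, 4078 and 3048 CPM in Lor-high cells. The rise to Krt10-leaning cells, 1.54-fold, had an adjusted p of 0.011 in edgeR, and 0.124 without control 1 and 0.068 without control 2. *Pkp1*, the plakophilin of suprabasal desmosomes, stood at 385, 649 and 430 CPM, then at 870, 764 and 606 CPM, and in Lor-high cells at 410, 480 and 405 CPM. Its Krt10-leaning level was the highest of the 4 stages in each library, and its adjusted p in edgeR were 0.106, 0.359 and 0.792 for the early, late and whole axis. *Jup*, which desmosomes share with adherens junctions, stood at 569, 625 and 608 CPM in Krt14-leaning cells and at 731, 756 and 752 CPM in Lor-high cells. In Krt10-leaning cells it stood at 837, 803 and 783 CPM, above the Lor-high value of each library. Lor-intermediate cells held 995, 617 and 774 CPM, in control 2 below its Krt14-leaning cells. Its Lor-high values lay above its Krt14-leaning values in every library without overlap. The fitted log2 difference between those ends was 0.64 ± 0.20, larger than the unscaled CPM give, with an adjusted p of 0.082 in edgeR.

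**Figure D2:**
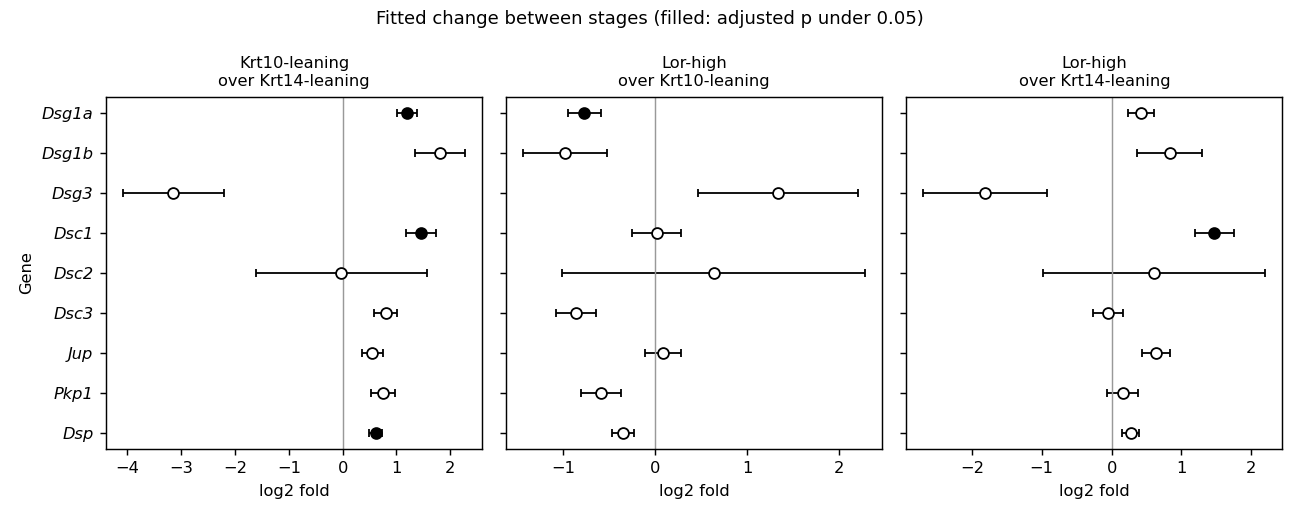
Fitted log2 fold (x axis) between stages for the 9 desmosome genes tested (y axis), with the SE as bars and filled points where the adjusted p of edgeR passed 0.05. Filled are *Dsg1a*, *Dsc1* and *Dsp* from Krt14-leaning to Krt10-leaning cells, *Dsg1a* from Krt10-leaning to Lor-high cells and *Dsc1* from Krt14-leaning to Lor-high cells.

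How counts are weighed matters for several of these genes, *Dsg1a* and *Dsp* among them. Krt10-leaning cells of the controls were the most deeply counted, with a median of 8938 and 15354 counts beside 3220 to 3790 counts in Lor-high cells of the 3 libraries. When each gene was counted once for each cell, so that the number of copies in a cell no longer entered, *Dsp* went from a rise to a fall between Krt14-leaning and Krt10-leaning cells (-0.48 ± 0.15, adjusted p 0.021 in edgeR), and *Dsg1a* to -0.18 ± 0.15 (adjusted p 0.515). In the same setting the late differences became 0.65 for *Dsp* and 0.40 for *Dsg1a*. At full depth *Dsp* was found in 83.7% to 94.0% of Krt14-leaning and 92.6% to 96.7% of Krt10-leaning cells, and *Dsg1a* in 50% to 61.5% and 70.7% to 86.2%. With cells thinned to 1000 counts, these shares rose early in each library and were lower again in Lor-high cells. In controls 1 and 2 and the library labelled *Vdr* cKO, *Dsp* went from 63.3%, 71.2% and 80.0% to 86.2%, 91.9% and 87.0%, then 79.6%, 85.1% and 78.8%. *Dsg1a* went from 32.9%, 38.4% and 33.9% to 52.4%, 66.4% and 50.2%, then 38.7%, 45.1% and 39.0%. The cause of the reversal was not tested. *Dsc1* kept its direction, at 0.73 and 0.84 for the early and the whole axis. Over all alternative settings, *Dsc3*, *Pkp1* and *Jup* kept the sign of their early difference in 8 of 9, with lowest values of -0.16, -0.12 and -0.11. In the late step *Dsc3* and *Pkp1* kept theirs in 8 of 9, with highest values of 0.10 and 0.04. Fixed limits for the stages were also tried, with *Lor* under 5000 and at least 20000 CPM. They also moved the split of *Krt14* to *Krt10* from the median to a fixed balance, at a smaller excess of *Krt10*. With both changes, 7 desmosome genes passed the threshold from Krt14-leaning to Krt10-leaning cells in place of 3. Beside them stood 227 of all genes in place of 228. Without the library block 0 desmosome genes passed, beside 37 of all genes.

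Some other genes linked to desmosomes also rose along the axis, and others went the other way. Of 9 further genes (*Dsg2*, *Dsg4*, *Pkp2*, *Pkp3*, *Pkp4*, *Perp*, *Cdsn*, *Evpl* and *Ppl*), 7 could be tested. From Krt14-leaning to Lor-high cells 2 rose and 0 fell past the threshold. These were *Cdsn*, which encodes corneodesmosin of the desmosomes of the cornified layer (2.65 ± 0.23), and *Ppl*, the plakin periplakin (1.11 ± 0.21, adjusted p 0.0034 in edgeR). *Cdsn* went from 198, 329 and 303 CPM to 1626, 1365 and 1216 CPM in controls 1 and 2 and the library labelled *Vdr* cKO. From Krt14-leaning to Krt10-leaning cells both rose, as did *Evpl*, which encodes envoplakin, a partner of periplakin (1.17 ± 0.24, adjusted p 0.016), a gene chosen for naming after its values were seen. In the same step *Dsg2* and *Pkp4* were lower in 3 of 3 libraries, at -6.38 ± 1.88 and -2.04 ± 0.61 (adjusted p 0.104 and 0.113 in edgeR). They too were picked after their values were seen. The median log2 difference of that step was 0.75 over the 9 desmosome genes tested and 0.73 over the 7 further genes tested. It was 0.18 over 9 adherens junction genes and 0.16 over all genes tested. From Krt14-leaning to Lor-high cells these medians were 0.42, 0.40, -0.21 and 0.16. All are medians of fitted differences, scaled by TMM factors. Of the adherens junction genes (*Cdh1*, *Cdh3*, *Ctnna1*, *Ctnnb1*, *Ctnnd1*, *Vcl*, *Nectin1*, *Nectin4* and *Afdn*), 0 of 9 passed the threshold of edgeR in each of the 3 contrasts. An unadjusted p under 0.05 was found for 3, 1 and 0 of them in the early, late and whole axis, beside 1619, 1022 and 1837 of all 11737 genes tested. With at most 3.43% of all genes called in a direction, 0 of 9 is near the background. No test compared the lists.

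For the gene past the threshold along the whole axis, *Dsc1*, the most similar profiles over the 12 sums were those of *AA986860* and *Rora*. Their Pearson correlations with *Dsc1* were 0.95 and 0.93 among 3908 genes, on log2 values with 10 CPM added. *Rora*, which encodes a nuclear receptor, ranged from 305 to 1073 CPM and *AA986860* from 27.0 to 145 CPM. The sums share 3 libraries and their depth, so the correlations are a description.

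Paralogue shares ask which member of a group of cadherins supplies its counts, and how that moves along the axis. Transcripts differ in length and in their 3′ ends, so a share of counts is not a share of molecules and is compared here between stages only. *Dsg3* supplied 2.34% (interval 1.37 to 3.72), 1.94% and 11.7% of the *Dsg1a*, *Dsg1b* and *Dsg3* counts in Krt14-leaning cells of controls 1 and 2 and the library labelled *Vdr* cKO. In Krt10-leaning cells the shares were 0.033%, 0.119% and 1.79%, and in Lor-high cells 0.190%, 0.937% and 3.28%. The share was higher in Krt14-leaning than in Lor-high cells in 3 of 3 libraries, by 3.84 ± 3.97 percentage points (SD, n = 3, exact sign-flip permutation test, two-sided p = 0.25, which is the smallest p that 3 libraries allow). It did not fall evenly, since Lor-intermediate cells stood above Krt10-leaning cells in each library, at 0.123%, 0.212% and 6.63%.

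*Dsc3* supplied 84.5%, 86.8% and 91.5% of the *Dsc1* and *Dsc3* counts in Krt14-leaning cells. Its share in Lor-high cells was 73.0%, 62.5% and 79.1%, lower in 3 of 3 libraries, by 16.1 ± 7.20 percentage points (SD, n = 3, exact two-sided permutation p = 0.25). In Lor-intermediate cells it was 78.1%, 72.7% and 83.5%, between the values of the Krt10-leaning and Lor-high cells of each library. Between Krt14-leaning and Krt10-leaning cells the difference was 5.69 ± 6.97 points, with control 1 going the other way by 1.03 points (exact two-sided permutation p = 0.5). With each gene counted once for each cell the difference between the ends of the axis was 11.03 points for *Dsc3* and 6.98 points for *Dsg3*, and with fixed stage limits 26.5 and 8.32 points. Counted once for each cell, the *Dsc3* share was 80.6%, 79.3% and 84.4% in Krt14-leaning cells. It was 71.9%, 64.4% and 73.8% in Krt10-leaning and 73.6%, 63.6% and 73.9% in Lor-high cells. In that setting the fall thus came in the early step. Depth also enters that setting, since Krt10-leaning cells of the controls were the most deeply counted. Thinned to 1000 counts, control 1 had 18, 113 and 123 cells with *Dsc3* in those stages, and 3, 22 and 34 with *Dsc1*. Control 2 had 42, 186 and 149 beside 4, 79 and 69. The library labelled *Vdr* cKO had 282, 124 and 221 beside 29, 19 and 54. The place of the fall depends on how counts are weighed, and the part of depth was not tested. *Dsg1b* supplied 4.79%, 6.45% and 1.90% of *Dsg1a* and *Dsg1b* counts in Krt14-leaning cells and 9.57%, 4.16% and 3.36% in Lor-high cells. These go in different directions in the controls (exact two-sided permutation p = 0.75).

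**Figure D3:**
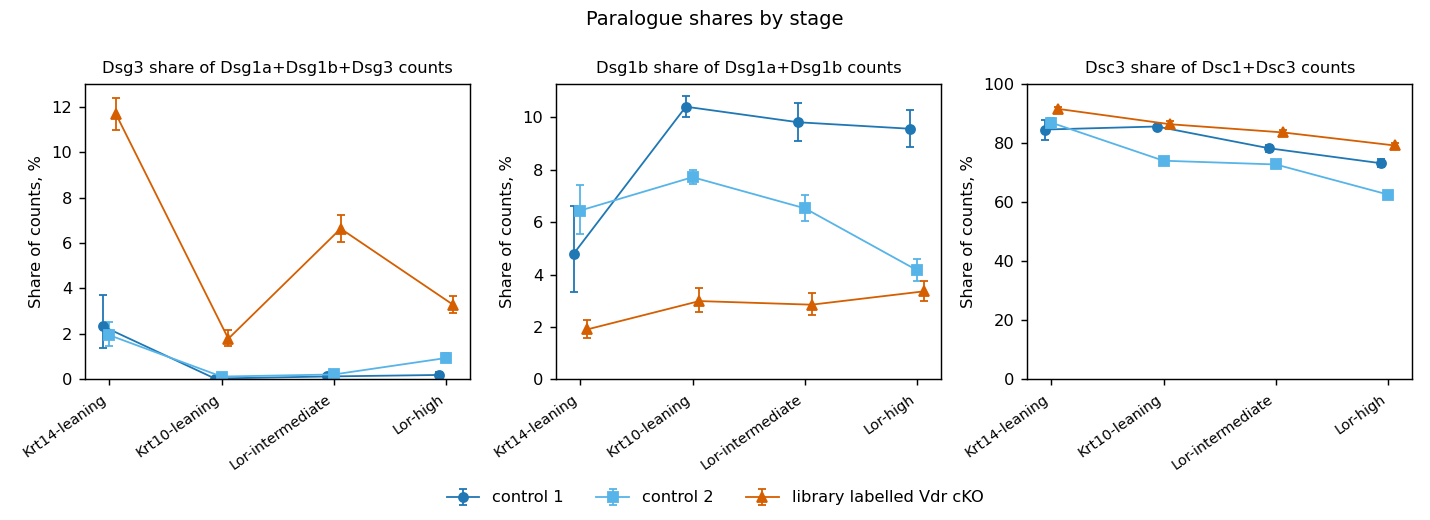
Share of counts (%, y axis) of *Dsg3* among *Dsg1a*, *Dsg1b* and *Dsg3*, of *Dsg1b* among *Dsg1a* and *Dsg1b*, and of *Dsc3* among *Dsc1* and *Dsc3*, by stage (x axis) and library, with 95% Clopper-Pearson intervals as bars. The *Dsc3* share is lower in Lor-high than in Krt14-leaning cells of each library, at 73.0% after 84.5% in control 1, and the *Dsg1b* share has no common course.

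Between genotypes, *Dsg1b* was lower and *Dsg3* higher in the library labelled *Vdr* cKO than in either control by over 2-fold, and the other desmosome genes were closer to the controls. *Dsg1b* stood at 190 CPM (interval 184 to 197) and 150 CPM (145 to 154) in the controls. At 27.0 CPM (25.2 to 28.9), the library labelled *Vdr* cKO was 5.55-fold below the nearer of them. *Dsg3* stood at 2.39 CPM (1.75 to 3.20) and 7.39 CPM (6.43 to 8.45) in the controls and at 59.9 CPM (57.2 to 62.7) here, 8.11-fold above the nearer of them. With 1 library of that genotype no test was made, and the rule was a level of at least 50 CPM in a library and over 2-fold from both controls. Of the 8 desmosome genes at that level, 1 was higher and 1 lower by the rule, where 4.06% and 1.2% of the 3919 genes at the level were. *Dsg3* reached the level in the library labelled *Vdr* cKO alone, and *Dsg1b* reached it in the controls alone. Without the limit on the level, 25.7% of genes were over 2-fold higher in the library labelled *Vdr* cKO and 3.90% lower. Each gene passed the level only where it was high, so the rule is limited for both, and more so for *Dsg3*. Related genes under the level were also higher in that library, picked after their values were seen. In controls 1 and 2 and that library, *Dsg2* stood at 8.24, 7.88 and 39.0 CPM. *Cdh3* stood at 0.48, 0.52 and 12.9 CPM and *Pkp2* at 0.16, 0 and 2.65 CPM. Of the 82 *Pkp2* counts in that library, 60 came from its 23 cells high in MHC class II genes. *Pkp4* and *Vcl*, also under the level, lay between their controls.

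The size of both differences can be set beside the spread of the controls. On the log2 scale, with 1 CPM added, *Dsg1b* differed by -2.61 from the mean of the controls, which differed from each other by 0.34. *Dsg3* differed by 3.37, and its controls by 1.31, so that control 2 held more *Dsg3* than control 1. In cells the counts of *Dsg3* came from 12, 42 and 305 cells and those of *Dsg1b* from 123, 245 and 144 cells. The log2 difference ranged from -2.91 to -1.56 for *Dsg1b* and from 1.91 to 4.17 for *Dsg3* over the 18 other settings tried.

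Among the remaining desmogleins, *Dsg1a* had 1706, 1947 and 881 CPM in controls 1 and 2 and the library labelled *Vdr* cKO, 1.94-fold below the nearer control and just inside the limit of the rule. It passed the rule when scaled by TMM or median-of-ratios factors, and when control 1 was left out. *Dsg1c* had at most 0.27 CPM. Of the desmocollins, *Dsc1* had 217, 348 and 141 CPM, a log2 difference of -0.999 with 0.68 between the controls, and it also passed the rule without control 1. *Dsc3* had 936, 912 and 831 CPM, a log2 difference of -0.15.

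The plaque genes were lower or level. *Dsp* had 4985, 5163 and 3295 CPM, 1.51-fold below the nearer control, and *Pkp1* had 652, 639 and 438 CPM, 1.46-fold below it. For both the difference over all kept cells was larger than that between the controls, whose log2 ratios were 0.05 and 0.03 in size. *Jup* had 781, 722 and 695 CPM, a log2 difference of -0.11, as large as the 0.11 between the controls. In all, 7 of the 8 desmosome genes at the level were below both controls and 1 was above both, while 35.9% of all genes at the level were below and 38.4% above. The median log2 difference of the 8 was -0.59, beside 0.0017 for all genes at the level. Lower values were not particular to these genes. Of the further genes linked to desmosomes, 4 of the 5 at the level were below both controls and 0 above, with a median of -0.43. Of the adherens junction genes, 5 of the 7 at the level were below both and 1 above, with a median of -0.14. TMM factors moved the median of all genes to -0.19, and the difference from that median was -1.04 for *Dsg1a*, -2.60 for *Dsg1b*, 3.38 for *Dsg3*, -0.61 for *Dsp* and -0.10 for *Jup*. Those scaled values give 107 genes higher and 89 lower (54.6% higher), where total counts gave 159 and 47 (77.2% higher).

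**Figure D4:**
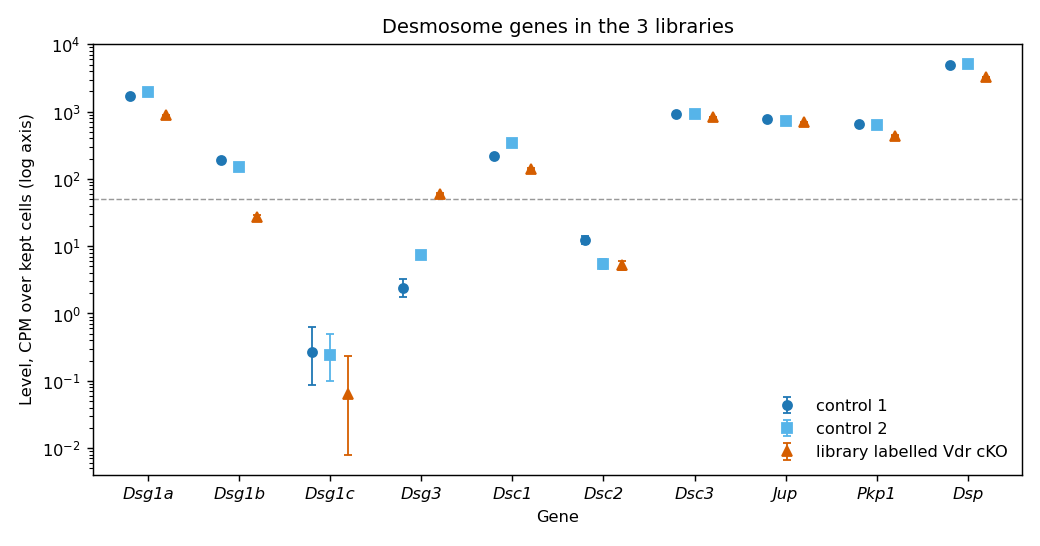
Level of the 10 desmosome genes (CPM, log axis) in each library, with 95% Poisson intervals as bars and the level of 50 CPM used by the rule as a dashed line. *Dsg3* at 59.9 CPM in the library labelled *Vdr* cKO lies above both controls, and the other 7 genes over the line lie below both, *Dsg1b* by the most.

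The mix of cells differed between the libraries. Krt14-leaning cells made up 5.41% and 7.66% of the kept cells of the controls and 27.3% of those with the *Vdr* cKO label, and the 6 basal markers summed to 3853, 2790 and 10668 CPM. The comparison was therefore repeated within each stage, a setting added after seeing the data. The 4 stages come from the same 3 libraries, so they are not independent of each other. The share of all genes on 1 side of both controls in every stage is not given here. Over all kept cells, 35.9% of genes at the level were below both controls and 38.4% above. *Dsg3* was above both controls in 4 of 4 stages, at 103 CPM beside 21.9 and 31.5 CPM in Krt14-leaning cells. In those cells the basal markers of the library labelled *Vdr* cKO (16386 CPM) lay between those of the controls (19269 and 10107 CPM). Its 6 inner root sheath markers lay above both, summing to 93.9 CPM beside 0 and 35.5 CPM. So did its 4 melanocyte markers, at 93.7 CPM beside 2.57 and 1.15 CPM. Its 5 T cell markers lay between, at 136 CPM beside 487 and 0 CPM. The part of follicle cells or melanocytes in the *Dsg3* difference was not tested. In Lor-high cells, *Dsg3* stood at 30.4 CPM beside 2.62 and 11.2 CPM, and the basal markers there at 6998 CPM beside 3032 and 2266 CPM. The part of residual basal transcripts in the *Dsg3* of later stages was not tested.

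*Dsg1b* was below both controls in 4 of 4 stages, and by over 2-fold in 3 of them. Of all genes at the level, 4.40%, 3.11% and 2.30% were lower by the rule in Krt14-leaning, Krt10-leaning and Lor-intermediate cells alone. In Krt10-leaning cells, where it was highest, it stood at 280, 222 and 44.6 CPM, a log2 difference of -2.47. In Lor-high cells it stood at 132, 49.1 and 30.1 CPM, where control 2 was nearer to the library labelled *Vdr* cKO than to control 1. *Dsg1a*, *Dsp* and *Dsc1* were below both controls in 4 of 4 stages as well. Their log2 differences were -0.99 to -0.46, -0.60 to -0.31 and -0.90 to -0.32. In Krt14-leaning cells these were -0.62, -0.31 and -0.32, smaller in size than the log2 ratios of control 1 to control 2, at -0.77, -0.38 and -0.51. For *Dsc1* the ratio of the controls was also about as large in Krt10-leaning cells (-0.91 beside -0.90) and in Lor-high cells (-0.57 beside -0.61). *Dsc3* was above both controls in Krt14-leaning and Lor-high cells and below both in the other 2 stages. *Pkp1* lay between the controls in Krt14-leaning cells, at 430 CPM beside 385 and 649 CPM, and below both in the later stages. Its log2 difference was -0.43 in Krt10-leaning and -0.66 in Lor-intermediate cells. In Lor-high cells it was -0.14, beside a log2 ratio of -0.23 between the controls. With the 4 stages weighted equally, *Dsg1b* and *Dsg3* differed by -2.26 and 2.42, and they were again the desmosome genes over 2-fold from both controls.

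**Figure D5:**
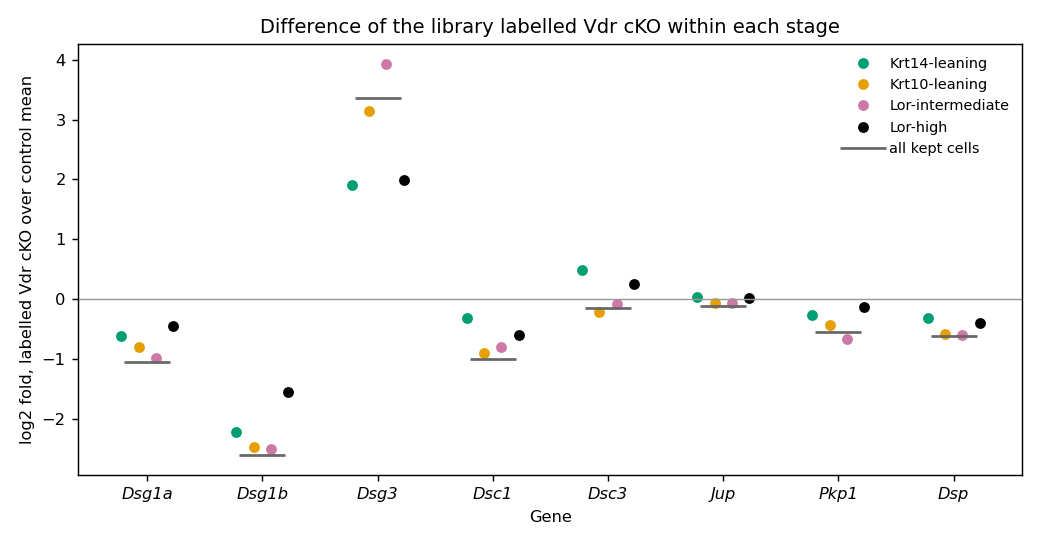
Log2 fold (y axis, 1 CPM added) between the library labelled *Vdr* cKO and the mean of the controls for 8 desmosome genes (x axis), within each stage (points) and over all kept cells (bars). *Dsg3* lies between 1.91 and 3.94 in the 4 stages and *Dsg1b* between -2.50 and -1.56, while *Jup* lies close to 0.

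The share of cells with a count was higher for *Dsg3* and lower for *Dsg1b* in the library labelled *Vdr* cKO. Cells were thinned to 1000 counts each, which left out 14, 61 and 60 cells. *Dsg1b* was found in 3.55% (interval 2.66 to 4.63), 5.07% (4.05 to 6.26) and 1.37% (0.953 to 1.89) of cells, and in 8.31%, 14.8% and 5.49% without thinning. *Dsg3* was found in 0.341% (0.111 to 0.794), 1.13% (0.669 to 1.78) and 3.90% (3.19 to 4.73), and in 0.811%, 2.53% and 11.6% without thinning. For both, the counting intervals did not overlap between the controls and the library labelled *Vdr* cKO. The libraries also differed in the genes found per kept cell, at medians of 377, 502 and 688.5 genes. Their median counts were 4190, 4492.5 and 4055. Thinning sets the counts per cell and not the genes found. The share of all genes with such intervals is not given here, so the separation is not read as particular to either gene. *Dsg1c* was found in 0.270%, 0.422% and 0.076% of cells without thinning. After thinning it was found in 0 of 1466, 1597 and 2562 cells, which allows up to 0.205%, 0.188% and 0.117% (3 cells of the total) at that depth and does not limit the share at full depth.

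*Dsg1a* was found in 41.3%, 50.5% and 36.8% of thinned cells, *Dsc1* in 6.68%, 12.1% and 5.78%, *Dsc3* in 27.7%, 32.7% and 35.8% and *Dsp* in 78.6%, 83.5% and 79.9%. *Dsc3* was thus most widespread in the library where its pooled level was lowest, and neither order is read from it. Free RNA in droplets can give such counts to cells that do not express a gene. The library labelled *Vdr* cKO held 23 cells high in MHC class II genes, at a median of 5878 counts beside 4055 over all cells. In them *Dsp* was found in 65.2%, *Dsc3* in 39.1%, *Dsg1a* in 30.4% and *Pkp1* in 30.4% of thinned cells. *Jup* was found in 21.7%, *Dsc1* in 8.70%, *Dsg1b* in 4.35% (1 of 23 cells) and *Dsg3* in 0%. For *Dsg3*, 0 of 23 cells allows a share of up to 13.0%. By level *Dsc1* (counts from 4 cells), *Dsp* and *Dsc3* stood in them at 24.1, 1442 and 652 CPM. The other cells of that library held 143, 3321 and 834 CPM, and *Dsg3* had 0 beside 60.7 CPM. *Dsg1a* was level, at 869 beside 881 CPM. *Jup*, *Pkp1* and *Dsg1b* were higher in them, at 751 beside 695, 529 beside 437 and 62.8 beside 26.5 CPM. These MHC class II cells are few and no clean blank, because 4 spinous markers summed to 30833 CPM in them and to 27383 CPM over all cells of that library. The part of free RNA in the shares could therefore not be measured.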

How the data were processed

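The deposited matrices of the authors hold counts per gene and barcode, as whole numbers and not normalized, with 1 matrix to a library. The labels name mm10 as genome build. The aligner, the annotation and the treatment of repeated molecules are not given in the sources used here. Cells were filtered, divided into 4 stages and summed as described above. Stage sums were tested with edgeR 4.0.16 (filterByExpr, TMM) in R 4.3.3. Libraries were compared without a test, by CPM, since 1 library carries the *Vdr* cKO label. Python 3.11.15 was used for the rest, with pandas 2.3.3, scipy 1.17.1, numpy 2.4.6 and, for plots, matplotlib 3.10.9. Gene positions and transcripts were taken from the annotation of GRCm38, in which 97.6% of the symbols were found. The members and lists were chosen with earlier results of these data known. Named are the 10 genes, genes of 2 further lists past the threshold from Krt14-leaning to Lor-high cells, the 2 profiles most like each member called there, and checks of label and stage. Alternatives were DESeq2 1.42.0 (Wald test, median-of-ratios factors), no filter, no library block, fixed stage limits, a gene counted once for each cell, other limits for cells, levels and folds, another pseudocount, the mean of each cell's CPM, no shared barcodes, and each library left out. Equal weight of the stages, each stage alone and Krt14-leaning against Krt10-leaning shares were added after seeing the data. The procedures were tested on simulated data. Doublets were not removed.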

Additional observations from a re-analysis of the deposited data

How the results depend on the processing

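Over the 3 stage contrasts, the 3 calls of the early step, 1 of the late step and 1 of the whole axis depended on the setting. Without the library block 0, 0 and 0 desmosome genes passed in the early, late and whole axis (37 of all genes in the early step). Fixed stage limits gave 7, 0 and 4 (736 of all genes for the whole axis), no filter on low counts 5 and 2 early and late (477 and 265 of all genes), and DESeq2's Wald test 798, 392 and 1257 of all genes. With each gene counted once for each cell, 4 passed late and 2 over the whole axis (659, 1184 and 1377 of all genes), and *Dsg1a* and *Dsp* reversed, at -0.18 and -0.48 early and 0.40 and 0.65 late. The share of cells with a count, thinned to equal depth, did not reverse for either gene in any library. The cause was not tested. *Dsc3*, *Pkp1* and *Jup* likewise kept the sign of their early difference in only 8 of 9 alternative settings. Leaving out a library gave 1 to 2 desmosome genes early, 0 late and 0 to 1 over the whole axis, and 96 to 124, 77 to 132 and 222 to 378 of all genes, with fewer samples fitted and, without the library labelled *Vdr* cKO, controls alone.

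Between genotypes, 2 desmosome genes became 5 at 1.5-fold (567 of all genes), 1 in Krt10-leaning and 0 in Lor-high cells alone, and 2 to 4 without a control library (356 to 399 of all genes). All genes numbered 936 from 10 CPM, 5866 with no limit, and 623, 328 and 325 in Krt14-leaning, Krt10-leaning and Lor-intermediate cells alone. Both differences between the ends of the axis in paralogue share kept their sign in every setting tried, at 1.58 to 5.26 points for *Dsg3* and 11.9 to 18.4 points for *Dsc3* with a library left out. No paired analysis was possible because the genotypes compared share fewer than 2 replicate numbers. Depth limits *Dsg1c*, *Dsc2* and the *Dsg3* of the controls most, where the level of a library rests on 2 to 46 cells with a count.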

Other observations

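Cells high in *Cers4* and *Fa2h*, which encode a ceramide synthase and a fatty acid hydroxylase, were set aside from the axis and held less of the main desmosome genes. They numbered 52 and 44 in the controls and 78 in the library labelled *Vdr* cKO. *Dsp* stood in them at 1374, 626 and 1688 CPM, beside 5270, 5356 and 3389 CPM over the other kept cells of the same libraries. *Dsg1a* stood at 275, 56.5 and 201 CPM beside 1819, 2027 and 920 CPM. *Dsc3* stood at 70.7, 139 and 372 CPM beside 1004, 945 and 858 CPM, and *Jup* and *Pkp1* were also lower in this class in 3 of 3 libraries.

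*Dsg1b* was lower in this class in control 1 alone, at 34.3 CPM beside 203 CPM, and stood at 172 beside 149 CPM in control 2 and at 27.6 beside 27.0 CPM in the library labelled *Vdr* cKO. *Dsc2* was higher in the controls, at 118 and 79.6 CPM in this class beside 3.96 and 2.33 CPM elsewhere. In the library labelled *Vdr* cKO it stood at 5.86 and 5.16 CPM. The counts behind these levels came from 6, 5 and 2 cells, with up to 91 and 50 counts in a cell of the controls, so they rest on few cells. *Dsg3* had 97 counts, from 20 of 78 cells, in the library labelled *Vdr* cKO, and 0 and 1 counts in the 52 and 44 cells of the controls. The 8 cells high in inner root sheath genes were all in the library labelled *Vdr* cKO. They held *Dsp* at 3319 CPM and *Dsc3* at 843 CPM, near the 3295 and 831 CPM of the other cells of that library. *Dsg1a* stood at 413 CPM beside 882 CPM. The *Dsc3* and *Dsg1a* values rest on 47 counts from 4 cells and 23 counts from 3 cells. No test was made, and these values were picked after they were seen.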
